A study of Mus musculus with 32 samples.

Results

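The genes described here are 9 genes that are known to respond to fasting or to handle ketone bodies and acyl-CoA, and they were measured among 24646 genes in liver and 3 fat depots of *Gpr146* knockout mice. They are the acyl-CoA thioesterases *Acot1*, *Acot2*, *Acot3* and *Acot4*, the pantetheinase *Vnn1*, the pyruvate dehydrogenase kinase *Pdk4*, the hormone gene *Fgf21*, the transcription factor gene *Creb3l3* and the ketone body enzyme *Bdh1*. They were chosen by name, with earlier results of these data known. Each of the 9 had 1 value on every array, so none was lost to a filter. The tissues were the liver, the epididymal and the inguinal white fat depots (eWAT and iWAT) and brown fat (BAT) of male C57BL/6J mice aged 20 weeks. In each tissue, 4 mice carried a whole-body deletion of *Gpr146*, which encodes an orphan G protein-coupled receptor, and 4 were wild-type littermates. The labels number the mice of each genotype 1 to 4 in every tissue. All mice, the controls included, had eaten a diet high in fat over 3 months and went without food overnight before collection, so that no fed group was compared here. The deletion was present in every tissue of a knockout mouse, and a difference seen in a tissue cannot be assigned to the receptor's loss in that tissue.

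In a fasted animal, fatty acids released by fat reach the liver, where they are activated to acyl-CoA, oxidised in mitochondria and peroxisomes and turned into ketone bodies. The nuclear receptor PPARα senses fatty acids and switches on many of the genes involved, among them *Acot1*, *Pdk4*, *Vnn1*, *Fgf21* and *Creb3l3*. The product of *Creb3l3*, CREBH, is a liver factor that acts with PPARα on *Fgf21*, and FGF21 is a hormone that the fasted liver releases into blood. Acyl-CoA thioesterases split acyl-CoA into free fatty acid and coenzyme A: ACOT1 in the cytosol, ACOT2 in mitochondria, and ACOT3 and ACOT4 in peroxisomes. VNN1 frees pantothenic acid, the precursor of coenzyme A, and PDK4 shuts off pyruvate dehydrogenase so that glucose carbon is spared. BDH1 interconverts acetoacetate and 3-hydroxybutyrate.

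The 4 thioesterase genes lie side by side on mouse chromosome 12, in the order *Acot2*, *Acot1*, *Acot4*, *Acot3* in the RefSeq annotation of GRCm38.p6, with *Acot5* and *Acot6* after them. They are close paralogs. The sequences of the array's probes were not used here, so cross-hybridisation between the 4 genes was not tested. Of the 9 genes, 8 had a promoter window in RefSeq, and the 250 bases before the start of transcription are shown for *Acot1*, *Acot2*, *Fgf21* and *Pdk4*, the 4 of these 8 with the largest log2 differences between genotypes below. They are written 5′ to 3′ on the strand of the gene. They lie at chr12:84009252-84009501 (plus strand) for *Acot1*, chr12:83987611-83987860 (plus strand) for *Acot2*, chr7:45615491-45615740 (minus strand) for *Fgf21* and chr6:5496279-5496528 (minus strand) for *Pdk4*. Capitals mark a CCAAT box (CCAAT), a cyclic AMP response half-site (TGACG) or a TATA box (TATAAA), read on both strands, so that ATTGG and CGTCA are the same boxes on the other strand.
Acot1: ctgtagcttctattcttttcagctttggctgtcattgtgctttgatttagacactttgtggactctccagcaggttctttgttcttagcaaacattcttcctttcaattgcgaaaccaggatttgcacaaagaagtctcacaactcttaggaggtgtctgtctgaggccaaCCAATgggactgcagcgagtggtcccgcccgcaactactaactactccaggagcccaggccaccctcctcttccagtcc
Acot2: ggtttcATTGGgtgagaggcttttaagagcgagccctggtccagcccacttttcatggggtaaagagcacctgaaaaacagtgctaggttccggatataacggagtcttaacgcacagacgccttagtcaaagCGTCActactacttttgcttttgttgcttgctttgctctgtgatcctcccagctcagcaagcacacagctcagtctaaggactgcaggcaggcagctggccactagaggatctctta
Fgf21: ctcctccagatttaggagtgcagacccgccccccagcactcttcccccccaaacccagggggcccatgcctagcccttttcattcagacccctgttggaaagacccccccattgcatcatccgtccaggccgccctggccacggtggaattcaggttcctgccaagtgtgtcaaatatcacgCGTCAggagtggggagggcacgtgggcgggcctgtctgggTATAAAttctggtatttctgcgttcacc
Pdk4: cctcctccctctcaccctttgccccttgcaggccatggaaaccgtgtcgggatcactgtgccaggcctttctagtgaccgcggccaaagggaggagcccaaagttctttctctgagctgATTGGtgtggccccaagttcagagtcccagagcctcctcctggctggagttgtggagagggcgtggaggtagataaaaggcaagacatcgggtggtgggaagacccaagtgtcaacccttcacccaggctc

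The neighbours *Acot1* and *Acot2* differed in these windows. *Acot1* held a CCAAT box that began 79 bases before the start, whereas *Acot2* held one that began 244 bases before it and also a TGACG half-site that began 117 bases before it. *Fgf21* held a TGACG half-site from base 68 and a TATA box from base 28 before the start. A CCAAT box stood in the windows of 6 of the 8 genes and in 33.8% of all 32851 windows of this length. *Acot3*, *Bdh1* and *Creb3l3* had more than 1 window each. A gene was counted if any of its windows held the letters, whereas the shares are over single windows. The TGACG half-site stood in 3 of the 8 (*Acot2*, *Creb3l3* and *Fgf21*) and in 17.8% of all windows. The nuclear receptor half-site AGGTCA stood in *Acot4* and *Creb3l3* and in 14.0% of all windows. PPARα and its partner RXR bind 2 such half-sites spaced by 1 base (AGGTCANAGGTCA). This repeat stood in no window of the 8 genes and in 0.0335% of all windows. These matches are letters in a window, and no binding was measured. Only exact copies within the 250 bases were counted, so altered or more distant copies of a site would be missed.

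The arrays were checked before the genes were compared. *Gpr146* was lower in every knockout array than in every wild-type array in all 4 tissues, with log2 changes of -1.77 in liver, -1.53 in eWAT, -1.55 in iWAT and -1.16 in BAT. The limma test passed in liver (adjusted p = 6.55e-06) and eWAT (0.00823) but not in iWAT (0.221) or BAT (0.0727). Hepatocyte markers averaged 10.17 to 10.39 on liver arrays, adipocyte markers 8.67 to 9.79 on fat arrays and brown adipocyte markers 7.51 to 7.94 on BAT arrays, as the tissue labels say. Other cell types moved between arrays. The mean of 14 macrophage markers on eWAT arrays was 7.54 to 7.71 in wild-type mice and 5.27, 7.35, 6.16 and 5.55 in knockout mice 1 to 4. The same mean was 3.95 to 4.38 and then 3.44, 4.18, 3.49 and 3.61 in liver, and 5.95 to 6.54 and then 5.05, 5.98, 5.46 and 5.26 in iWAT, so that knockout mouse 2 lay inside the wild-type range in both. In BAT it was 3.89 to 4.29 in wild-type mice and 3.63, 4.12, 3.87 and 3.65 in knockout mice 1 to 4. Knockout mouse 2 lay inside the wild-type range there too. On iWAT arrays the mean of 14 B and T lymphocyte markers was 7.23, 7.40, 3.68 and 3.34 in wild-type mice 1 to 4 and 3.61, 7.12, 3.45 and 5.09 in knockout mice 1 to 4. On BAT arrays the mean of 15 skeletal muscle markers was 3.34, 6.46, 7.39 and 3.36 in wild-type mice 1 to 4 and 3.21, 7.65, 3.92 and 3.32 in knockout mice 1 to 4.

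Knockout and wild-type mice were then compared within each tissue with limma, which fits each gene by a linear model and borrows information on variance from all genes. The Benjamini-Hochberg adjustment ran over the 24646 genes. Every value below is a log2 expression level or a difference of such levels (knockout minus wild type), and a difference of 1 is a doubling. In liver, 1 of the 9 genes passed an adjusted p of 0.05, where 0.661% of all genes did. In eWAT 2 of the 9 passed, where 15.2% of all genes did, so that this share is near that of all genes. In iWAT 0 of the 9 passed, as did 0 of all genes (0%), while 3 of the 9 and 15.4% of all genes (3803) had an unadjusted p below 0.05, and the methods' t-test called 1 gene of all genes after adjustment, none of them among the 9. In BAT 1 of the 9 passed, where 0.0284% of all genes did. The genes past the threshold were *Vnn1* in liver, *Pdk4* and *Acot1* in eWAT and *Acot2* in BAT, and all 4 changes were decreases.

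**Figure D1:**
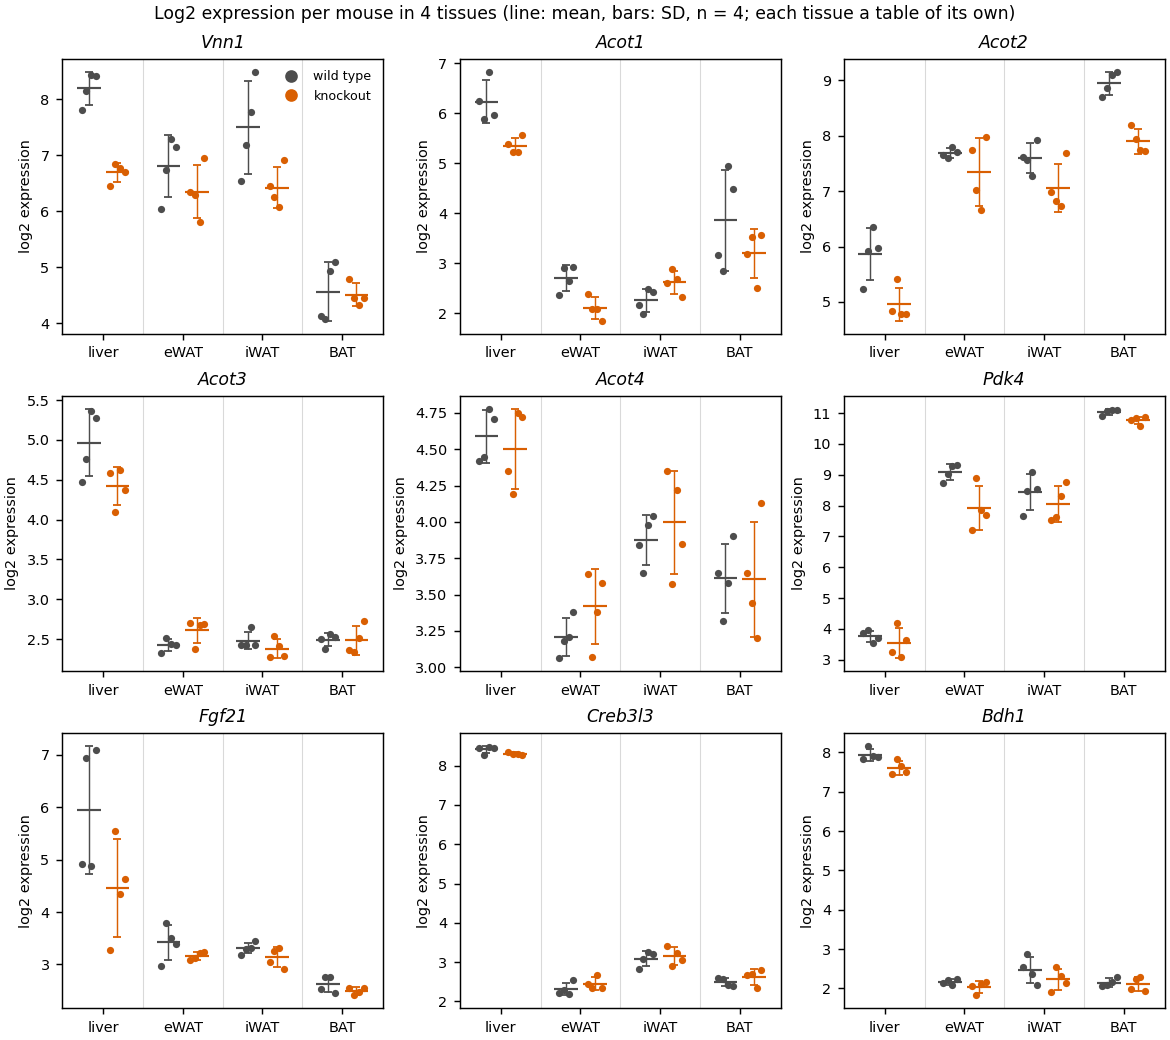
Log2 expression of the 9 genes on each array, with 1 panel per gene, tissues along the x axis, grey points for wild-type mice and orange points for knockout mice. Lines are means and bars SD over 4 mice, and the tissues come from separate tables, so levels of different tissues cannot be set side by side. In liver the 4 knockout values of *Vnn1* (6.46 to 6.84) and of *Acot1* (5.23 to 5.56) sit below every wild-type value, as do those of *Acot2* (7.72 to 8.19) and *Pdk4* (10.59 to 10.86) in BAT.

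*Vnn1* had the clearest difference in liver. The wild-type livers measured 7.80, 8.14, 8.43 and 8.42 and the knockout livers 6.46, 6.84, 6.77 and 6.71. All knockout values lay below all wild-type values by more than the spread within either group. The mean fell from 8.20 ± 0.30 (SD, n = 4) to 6.69 ± 0.16 (SD, n = 4), which is 2.84-fold lower, with a log2 change of -1.50 (standard error 0.14, limma adjusted p = 0.00167). The exact permutation test gave p = 0.0286, the smallest that 4 mice against 4 allow. With any 1 array left out the log2 change stayed between -1.64 and -1.43 and its adjusted p between 0.000331 and 0.0105, although the methods' t-test, which does not share variance across genes, gave an adjusted p of 0.140. Hepatocyte markers in the same livers averaged 10.17 to 10.28 in wild-type mice and 10.26 to 10.39 in knockout mice. Of the 14 macrophage markers 10 had a lower mean in knockout livers, with a median log2 change of -0.36, and 0 passed the test. Their part in the liver differences was not tested. In bulk tissue, fewer cells of a type and less RNA per cell cannot be told apart, here and in the comparisons that follow.

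In iWAT, *Vnn1* measured 6.55, 7.18, 7.78 and 8.48 in wild-type mice and 6.46, 6.25, 6.07 and 6.92 in knockout mice. The groups overlapped, because wild-type mouse 1 lay below knockout mouse 4. The log2 change was -1.07 (standard error 0.37) and did not pass the test (limma adjusted p = 0.261). The lowest 2 wild-type values belonged to the 2 wild-type arrays with high lymphocyte markers. When the 4 arrays whose lymphocyte marker mean exceeded 5 were left out, an alternative chosen after seeing the data, *Vnn1* differed by -1.86 (limma adjusted p = 0.0178) with 2 mice left in each group, in a comparison that called 916 genes. The arrays left out also held knockout mouse 4, whose marker mean of 5.09 was just above that cut and whose *Vnn1* value (6.92) was the highest of the knockout mice. Leaving these arrays out therefore widened the gap. All 14 macrophage markers also had a lower mean in knockout iWAT, with a median log2 change of -0.80, although 0 passed the test, and their part in the difference was not tested. In eWAT the wild-type arrays measured 6.05, 6.74, 7.29 and 7.14 and the knockout arrays 6.34, 6.30, 5.81 and 6.96, a log2 change of -0.45 with a 95% interval of -1.12 to 0.22. In BAT the values were 4.14, 4.08, 4.94 and 5.09 against 4.80, 4.46, 4.32 and 4.45, a log2 change of -0.05 (-0.56 to 0.45). In both depots the groups overlapped.

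**Figure D2:**
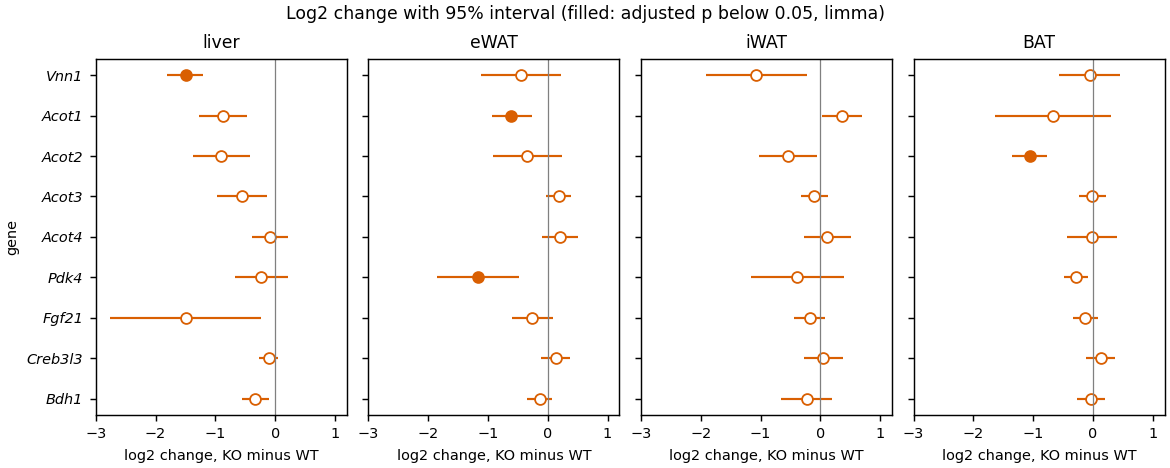
Log2 change of each gene, knockout minus wild type, in 4 tissues, with its 95% interval over 4 mice per genotype. Filled points passed an adjusted p of 0.05 (limma): *Vnn1* in liver at -1.50, *Pdk4* at -1.17 and *Acot1* at -0.61 in eWAT, and *Acot2* at -1.06 in BAT.

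Among the thioesterases, *Acot2*, the mitochondrial enzyme, differed most in BAT. Wild-type BAT measured 8.70, 8.86, 9.09 and 9.15 and knockout BAT 8.19, 7.94, 7.74 and 7.72, so that every knockout value lay below every wild-type value, as it did for 3.92% of all genes in BAT. The mean fell from 8.95 ± 0.21 (SD, n = 4) to 7.90 ± 0.22 (SD, n = 4), 2.08-fold lower, with a log2 change of -1.06 (standard error 0.13, limma adjusted p = 0.0483). Its exact permutation p was 0.0286, and its adjusted p was close to the threshold. It lay above the threshold with quantile normalization (0.0664), with array medians made equal (0.0543), with the methods' t-test (0.207) and without any single array except wild-type mouse 1 (0.0621 to 0.191). In each of these cases the size of the change stayed between -1.15 and -0.99. Without the 3 arrays with a high muscle marker mean, namely wild-type mice 2 and 3 and knockout mouse 2, it was -1.05 (adjusted p = 0.440). Brown adipocyte markers averaged 7.83 to 7.94 in wild-type BAT and 7.51 to 7.67 in knockout BAT, and their part in the difference was not tested.

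*Acot2* was lower on average in knockout mice in the other tissues too, without passing the test. Wild-type livers measured 5.23, 5.92, 6.35 and 5.97 and knockout livers 4.84, 5.41, 4.78 and 4.79, a log2 change of -0.91 (standard error 0.22, limma adjusted p = 0.0938). Knockout mouse 2 overlapped the lowest wild-type liver, and the adjusted p was 0.0405 without that knockout mouse and 0.0252 without wild-type mouse 1. It was 0.155 to 0.228 without any 1 of the 6 other arrays, 0.121 with quantile normalization and 0.337 with the methods' t-test. In iWAT the values were 7.61, 7.57, 7.28 and 7.93 in wild-type mice and 6.98, 6.83, 6.74 and 7.68 in knockout mice, a log2 change of -0.54 (-1.03 to -0.05, adjusted p = 0.301). In eWAT they were 7.66, 7.59, 7.79 and 7.71 against 7.75, 7.03, 6.66 and 7.97, a log2 change of -0.34 (-0.91 to 0.23). The knockout eWAT arrays lay both above and below the narrow range of the wild-type arrays.

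*Acot1*, which encodes the cytosolic enzyme, measured 6.25, 5.88, 6.83 and 5.96 in wild-type livers and 5.39, 5.23, 5.23 and 5.56 in knockout livers. The groups did not overlap, which held for 4.16% of all genes in liver. The log2 change was -0.88 (standard error 0.18) with an adjusted p of 0.0563 from limma, just outside the threshold. It was inside it when genes with a mean level below the median were left out (0.0452) or array medians were made equal (0.0454). It was outside with quantile normalization (0.0964), with the methods' t-test (0.291) and with each array left out in turn (0.0569 to 0.148). In eWAT, *Acot1* measured 2.36, 2.91, 2.64 and 2.92 in wild-type mice and 2.39, 2.09, 2.09 and 1.84 in knockout mice. Knockout mouse 1 lay above wild-type mouse 1, and the mean fell by 0.61 on the log2 scale (standard error 0.15, adjusted p = 0.0266 from limma). These are dim values, below the median wild-type level of all genes in eWAT, which was 3.16, and the call was lost without any 1 of 5 of the 8 arrays (adjusted p between 0.0527 and 0.0828) and with the methods' t-test (0.0930). In BAT the wild-type mice lay apart, at 3.17 and 2.85 (mice 1 and 2) and 4.94 and 4.48 (mice 3 and 4), while the knockout mice measured 3.19, 3.53, 2.50 and 3.57, a log2 change of -0.66 (-1.63 to 0.30). In iWAT the change was 0.36, the opposite sign, from 2.16, 1.99, 2.48 and 2.42 to 2.60, 2.88, 2.68 and 2.33 (adjusted p = 0.307).

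The peroxisomal *Acot3* measured 4.47, 4.76, 5.36 and 5.28 in wild-type livers and 4.59, 4.10, 4.62 and 4.37 in knockout livers, a log2 change of -0.55 (standard error 0.19, limma adjusted p = 0.244) with overlapping groups. In the 3 fat depots *Acot3* lay between 2.28 and 2.73 on every array. Its log2 changes there were 0.18 in eWAT, -0.10 in iWAT and -0.01 in BAT. *Acot4*, which prefers dicarboxylic acyl-CoA, had overlapping groups in all 4 tissues, with log2 changes of -0.09 in liver (-0.39 to 0.21), 0.21 in eWAT (-0.09 to 0.50), 0.12 in iWAT (-0.28 to 0.52) and -0.01 in BAT (-0.43 to 0.41). It is the 1 gene of the 9 whose value averages several probe sets.

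*Pdk4* passed the test in eWAT. The wild-type arrays measured 8.73, 9.03, 9.29 and 9.31 and the knockout arrays 7.21, 8.89, 7.86 and 7.71. Knockout mice 1, 3 and 4 lay below every wild-type mouse, and knockout mouse 2 lay inside the wild-type range. The mean fell from 9.09 ± 0.27 (SD, n = 4) to 7.92 ± 0.70 (SD, n = 4), 2.25-fold lower, with a log2 change of -1.17 (standard error 0.31, limma adjusted p = 0.0316) and an exact permutation p of 0.0571. Without knockout mouse 2 the change was -1.50 (adjusted p = 0.000476). Without any 1 of 6 other arrays it was between -1.19 and -0.94 and no longer past the threshold (0.0667 to 0.0908). Knockout mouse 2 was also the knockout mouse whose macrophage markers were near those of the wild type, at 7.35 against 7.54 to 7.71. Across that marker list, 10 of 14 genes were lower and 0 higher in knockout eWAT, among them *Trem2* with a log2 change of -3.12 and *Cd68* with -2.26, and 10 of 11 adipocyte markers were higher, with *Lep* the 1 that was lower (-0.98). The adipocyte marker mean was 8.67 to 9.05 in wild-type mice and 9.33 to 9.72 in knockout mice. The part of these cell types in the difference of *Pdk4* and of *Acot1* was not tested.

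**Figure D3:**
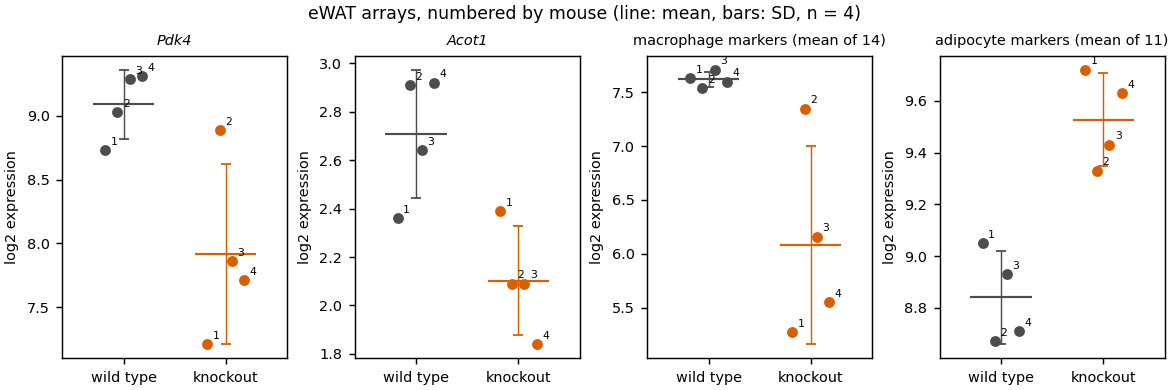
*Pdk4*, *Acot1* and the mean log2 expression of 14 macrophage and 11 adipocyte markers on the 8 eWAT arrays, with points numbered by mouse, lines for means and bars for SD. Knockout mouse 2 sits near the wild-type mice for *Pdk4* (8.89) and for the macrophage markers (7.35) but not for *Acot1* (2.09) or the adipocyte markers (9.33).

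In the other tissues *Pdk4* did not pass the test. In BAT it measured 10.90, 11.08, 11.09 and 11.11 in wild-type mice and 10.76, 10.83, 10.59 and 10.86 in knockout mice. All knockout values lay below all wild-type values, but the log2 change was small, at -0.28 (standard error 0.09, limma adjusted p = 0.224). In iWAT the values were 7.66, 8.48, 9.10 and 8.54 against 7.54, 7.63, 8.31 and 8.75, a log2 change of -0.39 (-1.16 to 0.39). In liver they were 3.86, 3.96, 3.55 and 3.71 against 3.25, 4.20, 3.08 and 3.64, a log2 change of -0.23 (-0.68 to 0.22). Both of these comparisons overlapped.

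*Fgf21* varied widely between livers of the same genotype. Wild-type livers measured 4.92, 6.93, 4.87 and 7.08 and knockout livers 3.28, 5.55, 4.34 and 4.63. The wild-type livers thus lay in a low and a high pair, and knockout mouse 2 lay above the low pair. The log2 change of -1.50 equalled that of *Vnn1* in size, but its standard error was 0.57 against 0.14 and it did not pass the test (limma adjusted p = 0.282, 95% interval -2.76 to -0.24, exact permutation p = 0.143). In fat, *Fgf21* lay between 2.41 and 3.80 on every array, with log2 changes of -0.26 (eWAT), -0.18 (iWAT) and -0.13 (BAT) and overlapping groups in each depot.

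*Creb3l3*, whose product acts on *Fgf21*, differed little in liver. It measured 8.46, 8.27, 8.48 and 8.44 in wild-type livers and 8.35, 8.29, 8.30 and 8.27 in knockout livers, a log2 change of -0.11 with a 95% interval of -0.27 to 0.05. In fat it lay between 2.20 and 3.42, with log2 changes of 0.13 in eWAT, 0.05 in iWAT and 0.13 in BAT, none of which passed the test. *Bdh1* measured 7.83, 8.17, 7.90 and 7.87 in wild-type livers and 7.46, 7.83, 7.65 and 7.49 in knockout livers, where only knockout mouse 2 reached the lowest wild-type value. Its log2 change was -0.33 (standard error 0.10, limma adjusted p = 0.199). In fat it lay between 1.82 and 2.87, with log2 changes of -0.13 in eWAT, -0.23 in iWAT and -0.03 in BAT.

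Most changes of the 9 genes were below 0 in every tissue. All 9 log2 changes in liver were below 0, where 46.9% of all genes were, and 6 of the 9 had an unadjusted p below 0.05, where 13.3% of all genes did. The median log2 change of the 9 was -0.55, against 0.01 for all genes. In eWAT 6 of the 9 changes were below 0 (43.5% of all genes), in iWAT 6 (46.8%) and in BAT 8 (49.2%). The 9 genes are not independent measurements, since they share mice and, in part, regulators. They were also chosen with earlier results of these data known, so these counts are a description and not an independent test of direction.

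The levels themselves ranked differently across tissues. Since the tissues come from separate tables whose median levels differ, the place of each gene among all genes of its own tissue in wild-type mice was used, and this place depends on the probes as well as on the RNA. *Pdk4* stood at percentile 99.9 in BAT, 99.1 in eWAT, 98.3 in iWAT and 62.6 in liver. *Acot2* likewise stood highest in BAT and lowest in liver, with 98.9 in BAT, 95.6 in iWAT, 95.4 in eWAT and 85.8 in liver. *Acot1* was highest in liver at 89.0, followed by 63.7 in BAT, 42.7 in eWAT and 18.3 in iWAT. *Vnn1* stood at 97.4 in liver, 95.1 in iWAT, 90.0 in eWAT and 71.6 in BAT. *Creb3l3*, *Bdh1* and *Fgf21* stood at 97.8, 96.8 and 86.6 in liver and at no more than 53.5 in any fat depot. No test was made of this order.

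Whether the knockout change itself differed between tissues was tested with the difference of both changes in 1 limma fit over 16 arrays. That fit took the 16 arrays as independent, and so ignored any sharing of animals between tissues. In that unpaired fit none of the 9 genes passed in any of the 3 contrasts of liver with fat. Of all genes, 8.53% (eWAT), 0.118% (iWAT) and 0.146% (BAT) did, while 3, 1 and 2 of the 9 had an unadjusted p below 0.05 in the same order. The closest was *Vnn1*, whose liver change was lower by 1.45 than its BAT change (standard error 0.29, limma adjusted p = 0.0552). For *Vnn1* in liver and eWAT the difference was -1.06 (adjusted p = 0.0749), and for *Acot3* it was -0.73 (0.0641). For *Vnn1* in liver and iWAT it was only -0.43 (limma adjusted p = 0.734), and for *Acot2* in liver and BAT it was 0.15 (0.923). The labels number the mice 1 to 4 in each tissue, without stating outright that a number is the same animal throughout. With mouse number as a block, which pairs the tissues of an animal if it is, 4 differences passed. They were *Vnn1* for liver minus BAT (limma adjusted p = 0.0216) and for liver minus eWAT (0.0228), *Acot3* for liver minus eWAT (0.0338) and *Pdk4* for liver minus eWAT, at 0.94 (0.0350 with the block and 0.173 without). Whether these 4 differences passed thus depended on the pairing. *Acot1* in liver minus iWAT differed by -1.24 and did not pass either way (0.0901 without and 0.124 with the block). Over all genes, with genotype means subtracted, correlations were computed between liver and fat arrays of the same number and genotype. They lay on both sides of 0, and arrays of different numbers were not compared. The correlations were -0.063 to 0.150 for eWAT, -0.145 to 0.171 for iWAT and -0.034 to 0.068 for BAT. Among the 3 contrasts between fat depots, added after seeing the data, none of the 9 genes passed either, against 0.0243% of all genes for eWAT minus iWAT, 5.98% for eWAT minus BAT and 0% for iWAT minus BAT, and 2, 2 and 1 of the 9 had an unadjusted p below 0.05.

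The other genes of these pathways were counted in 8 lists that leave out the 9 genes. In liver, 4 of 30 genes of PPARα and its textbook targets were lower and 0 higher past the threshold, where 0.661% of all genes passed, and the median log2 change of this list was -0.27. The 4 were *Cd36*, a fatty acid carrier of the cell membrane (-1.74, adjusted p = 0.0144 from limma), *Cyp4a14*, a fatty acid ω-hydroxylase (-1.43, 0.0427), *Pex11a*, a peroxisome division factor (-1.14, 0.00173), and *Txnip*, a glucose-responsive arrestin (-1.13, 0.0311). *Pex11a* measured 7.39, 7.35, 7.65 and 7.36 in wild-type livers and 6.45, 6.24, 6.46 and 6.02 in knockout livers, with no overlap, like *Vnn1*. The knockout livers of *Cyp4a14* measured 8.45, 9.56, 8.30 and 8.46 against 9.93, 9.65, 10.50 and 10.41 in the wild type, where knockout mouse 2 again stood nearest to the wild type. In the other 7 lists 0 of 95 genes passed limma's adjusted threshold in liver, and 29 (30.5%) had an unadjusted p below 0.05, where 13.3% of all genes did. Their medians lay between -0.12 (CREB3L family and CREBH targets) and 0.12 (other fasting-induced liver genes), with -0.07 for 11 ketone body genes and -0.04 for 15 other acyl-CoA thioesterases. Among adipocyte markers, 3 of 11 were lower in knockout liver, *Cidec* (-2.08), *Plin4* (-1.55) and *Cfd* (-1.12), and the list's mean was 3.81 to 4.24 in wild-type and 3.30 to 3.82 in knockout livers. The paper counts *Plin4*, *Cidec* and *Cd36* among the targets of PPARγ, a regulator of adipogenesis, and reports them lower in knockout livers by qPCR. Which cells of the liver these differences came from was not tested.

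**Figure D4:**
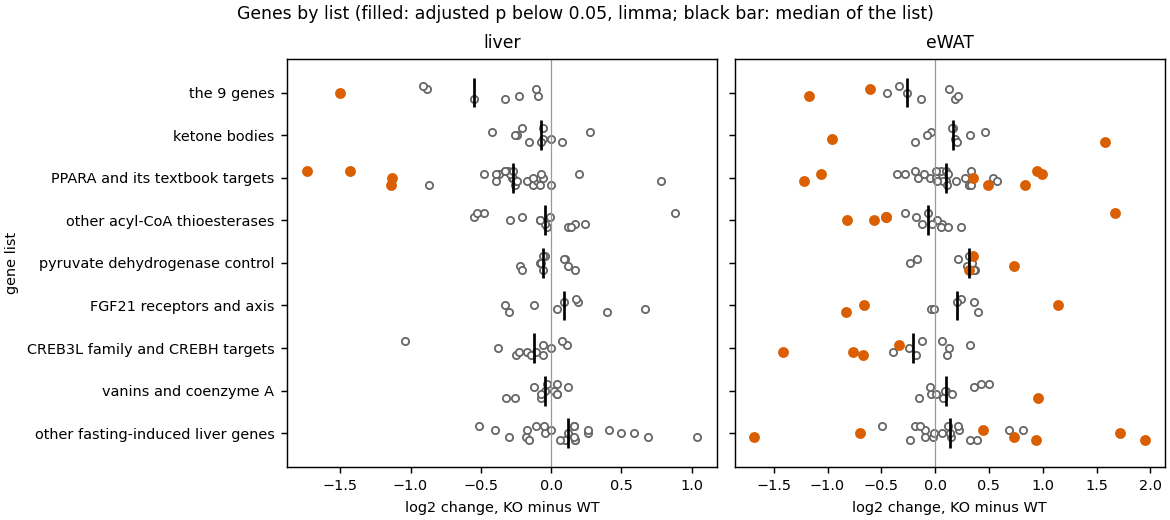
Log2 change, knockout minus wild type, of every gene of the 9 and of 8 pathway lists in liver (left) and eWAT (right). Filled points passed an adjusted p of 0.05 (limma) and black bars are list medians, which in liver were -0.55 for the 9 genes and -0.27 for PPARα and its textbook targets.

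In eWAT, where 15.2% of all genes passed, the lists moved in both directions. Of the PPARα list 5 genes were higher and 2 lower, and the 4 largest were *Cpt1a*, which admits fatty acids to mitochondria (-1.22), *Plin2*, a lipid droplet coat protein (-1.06), *Slc27a1*, a fatty acid transporter (0.99), and *Ehhadh*, a peroxisomal β-oxidation enzyme (0.95). *Pex11a* had opposite signs in the 2 tissues, at -1.14 in liver and 0.83 in eWAT, and that difference was not tested here. Among other pyruvate dehydrogenase regulators 3 of 11 were higher and 0 lower: the kinases *Pdk2* (0.73) and *Pdk1* (0.31) and the phosphatase *Pdp2* (0.35). *Pdk4* thus had the opposite sign to the other 2 kinases that passed. Of 15 other thioesterases 1 was higher, *Fasn*, whose product carries a thioesterase domain (1.67), and 4 were lower, among them the palmitoyl-protein thioesterase *Ppt1* (-0.82), *Acot7* (-0.57) and *Acot8* (-0.46).

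The remaining lists in eWAT held further changes. Of ketone body genes *Aacs*, which uses acetoacetate for lipid synthesis, was higher (1.58) and the monocarboxylate transporter *Slc16a1* lower (-0.96). Of the FGF21 receptors and axis *Fgfr2* was higher (1.14), and *Fgf1* (-0.83) and the FGF21-cleaving protease *Fap* (-0.66) were lower. Of the CREB3L family and CREBH targets 4 of 12 were lower and 0 higher: *Creb3l1* (-1.41), the protease *Mbtps2*, which activates such factors (-0.76), *Creb3* (-0.67) and *Creb3l4* (-0.34). Of the vanins and coenzyme A genes only *Vnn3* passed (0.96), with the sign opposite to the -0.45 of *Vnn1*, which did not pass. Of other fasting-induced liver genes 5 were higher and 2 lower, led by *Klf15* (1.95), *Gpt2* (1.72), *Got1* (-1.68) and *Pck1* (0.94). In iWAT and in BAT 0 of the 125 genes of the 8 lists passed with limma, and in each of these tissues 33 (26.4%) had an unadjusted p below 0.05, where 15.4% of all genes in iWAT and 12.7% in BAT did.

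Variation between mice of 1 genotype was compared for the 36 pairs of the 9 genes, over 8 arrays per tissue after the genotype means were subtracted. No pair passed after Benjamini-Hochberg adjustment over the 36 pairs of its tissue, and 2 of the 36 had an unadjusted p below 0.05 in each tissue. The smallest adjusted p of the exact permutation tests was 0.312 in liver, 0.625 in eWAT, 0.592 in iWAT and 0.437 in BAT. The median r over the pairs was 0.18, 0.24, 0.08 and 0.14 in the same order. The 576 arrangements allow no p below 0.0017, at which a pair standing alone would not pass the adjustment. Whether single pairs of the 9 genes vary together between mice could therefore not be decided with these 8 arrays.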

How the data were processed

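RNA from 4 tissues, with 4 mice per genotype in each, was hybridised to 32 Affymetrix Mouse Gene 2.1 ST arrays. The values are log2 expression levels per gene symbol, deposited by the authors in 1 table per tissue. The software, the probe summary and the normalization are not given in the sources used here. Per the labels, 100 ng of total RNA was labelled with biotin. For 840 genes the deposited value averages several probe sets. Array medians ranged from 3.00 to 3.06 in liver, 3.13 to 3.18 in eWAT, 3.65 to 3.73 in iWAT and 2.82 to 2.86 in BAT, so arrays were close within a tissue and differed between tissues, and levels were compared only within a tissue. The number of arrays limits the precision. The white fat tables name their depots as visceral and inguinal and were read as eWAT and iWAT. The titles of the knockout livers also name the wild type, but their genotype fields say knockout, and they were used as such. Entries without a gene name, or with a name turned into a number, were left out, which left 24646 genes.

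Within each tissue the genotypes were compared by limma 3.58.1 in R 4.3.3 with Benjamini-Hochberg adjustment over all genes, at a threshold of 0.05. Single genes were also tested by exact permutation of the genotype labels (two-sided, 70 arrangements). Tissues were set against each other only through differences of the knockout change. All 9 genes and, per list and tissue, up to 4 genes past the threshold with the largest changes are named. Genes of the marker lists are named beside the results they move with, and *Pex11a* in eWAT was named after its values were seen. The genes and lists were chosen with earlier results of these data known. The alternatives comprised a robust prior with a trend, array weights, genes with a mean below the median left out as dim, quantile normalization, equal array medians, the methods' t-test, the replicate number as a block and each array left out. Leaving out arrays with high muscle or lymphocyte markers and contrasts between fat depots were added after seeing the data. On simulated data over 24646 genes, the procedure recovered 97% (liver), 92% (eWAT), 82% (iWAT) and 95% (BAT) of genes changed by 1 on the log2 scale. On the real arrays the deleted gene *Gpr146* changed by -1.55 in iWAT and -1.16 in BAT. It did not pass in either (limma adjusted p = 0.221 and 0.0727). The simulated shares therefore do not give the power of the real comparisons. Promoter windows were taken from RefSeq (GRCm38.p6). Figures were drawn with matplotlib 3.10.9.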

Additional observations from a re-analysis of the deposited data

Results flagged for a closer look

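The lowest or highest array of a group of 4 stood apart from the other 3, by a gap whose share of the group's range exceeds Dixon's 95% critical value, in 3 of the 72 groups of 4 arrays examined, where chance gives about 1 in 20. *Acot2* in liver was 5.41 in knockout mouse 2, against 4.78 to 4.84 in the other 3 knockout livers (ratio 0.904). *Acot3* in eWAT was 2.38 in knockout mouse 2, against 2.68 to 2.70 in the others (ratio 0.93). *Acot3* in iWAT was 2.65 in wild-type mouse 3, against 2.42 to 2.43 in the others (ratio 0.984).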

How the results depend on the processing

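The number of the 9 genes past the threshold was small in every tissue, so 1 gene gained or lost changes it by more than 1.5 times. In liver it was 1, and became 2 with dim genes left out or equal array medians (*Acot1* added), 2 with the replicate block (*Fgf21* added, adjusted p = 0.0473) and 0 with the methods' t-test. Leaving out 1 array gave 1 to 2. In eWAT it was 2, and became 1 with dim genes left out, where *Acot1* was not tested, 1 with the replicate block (*Acot1* lost, adjusted p = 0.0703) and 0 with the methods' t-test. Leaving out 1 array gave 0 to 3. In iWAT it was 0 with every array left out in turn (0 to 0) and 1 without the arrays with high lymphocyte markers. In BAT it was 1, and became 0 with quantile normalization, equal array medians, the methods' t-test, the replicate block (*Acot2* at an adjusted p of 0.0754) and without the arrays with high muscle markers. Leaving out 1 array gave 0 to 1. Over all genes, the 163 calls in liver became 252 with dim genes left out, 2 with the methods' t-test and 41 to 300 without 1 array. The 3758 calls in eWAT became 38 with that t-test and 1448 to 5429 without 1 array. The 7 calls in BAT became 0 with quantile normalization, equal array medians, the t-test and the block, and 0 to 80 without 1 array, and the 0 calls in iWAT became 1 with the t-test, 1 with the block and 0 to 227 without 1 array. For the difference liver minus eWAT the number of the 9 genes past the threshold was 0, and became 3 with array weights, 1 with quantile normalization, 1 with dim genes left out and 3 with the mouse number as a replicate block, and 0 to 2 without 1 array. For liver minus BAT it was 0, and became 1 with quantile normalization, 1 with dim genes left out and 1 with the replicate block by mouse number, and 0 to 1 without 1 array. For liver minus iWAT it was 0, and 0 to 1 without 1 array. For eWAT minus BAT it was 0, and became 2 with array weights and 0 to 1 without 1 array.

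Among the alternatives run, the log2 changes of the 9 genes that turned sign were all close to 0. With quantile normalization *Creb3l3* in iWAT was -0.02, *Acot4* in BAT 0.03 and *Vnn1* in BAT 0.01. Without the arrays with high muscle markers *Fgf21* in BAT was 0.03 and *Acot3* 0.02. Leaving out 1 array moved *Acot4* in liver between -0.17 and 0.02, *Creb3l3* in iWAT between -0.04 and 0.14, and in BAT *Bdh1* between -0.10 and 0.03, *Acot3* between -0.09 and 0.04, *Acot4* between -0.18 and 0.13 and *Vnn1* between -0.21 and 0.12. The cause of these differences was not tested. Wild-type and knockout mice of the same number deviated together in some pairs only, with correlations over all genes of -0.057 to 0.106 (liver), 0 to 0.159 (eWAT), -0.385 to 0.669 (iWAT) and 0.012 to 0.222 (BAT). In iWAT and in BAT 3 of the 4 pairs were above 0.1, and in liver and in eWAT 1 was. Since not every pair of a tissue was, the replicate number was not taken to pair the genotypes.

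Each group held 4 mice, which limits the precision of every value. In fat *Acot1*, *Acot3*, *Acot4*, *Creb3l3*, *Bdh1* and *Fgf21* stood at percentile 63.7 or lower among all genes, and signal over background was not analysed here.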
